A study of Homo sapiens with 8 samples.

Results

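The comparison described here sets H1 cells given the OCT4 lentivirus (label OE-OCT4, 2 arrays) against H1 cells given the control lentivirus (label EF1a-control, 2 arrays), across every gene measured above background. These are 4 of the 8 Illumina expression arrays of the series. The other 4 arrays, 2 each of cells given a NANOG vector (OE-NANOG) or a SOX2 vector (OE-SOX2), enter the estimate of the spread and a test of how the OCT4 response differs from theirs. H1 is an established human embryonic stem cell line, and every group, control included, grew on Matrigel in mTeSR medium and was transduced with a lentivirus in the presence of polybrene. The control virus is named after EF1a, a constitutively active promoter; the sources used here do not give the promoter of the OCT4 virus, the time from transduction to harvest or the share of cells transduced. The labels do not state whether the 2 arrays of a group are separate cultures, so the p-values speak of the spread among these arrays, part of which may be technical. Values are the authors' normalized intensities, the brightness of a probe on a linear scale, and changes are differences of log2 background-corrected intensity. After a filter on dim probes 12436 genes were compared, each through its brightest probe.

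OCT4 is the protein product of POU5F1, a POU-domain transcription factor. In pluripotent cells it binds DNA together with SOX2 at many enhancers, including those of POU5F1, NANOG and SOX2 themselves, and it is needed to keep cells in that state. In embryonic stem cells its dose matters: loss of OCT4 turns cells towards trophectoderm, and in mouse cells a raised dose favours mesoderm and endoderm. Nodal and activin are ligands of the TGF-beta family that hold human embryonic stem cells in the undifferentiated state, and the LEFTY and CER1 proteins are their secreted antagonists and transcriptional targets.

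The cells carried the markers of their label. All 13 embryonic stem cell markers with a probe were above the filter intensity of 123.7 on each of the 4 arrays, with intensities from 273 to 6259, and they included LIN28A, DNMT3B, L1TD1, DPPA4, SALL4 and EPCAM. Their summed intensity was 35759 and 35748 on the OE-OCT4 arrays, against 40690 and 40243 on the control arrays. Of 10 fibroblast markers, 4 were above the filter on all 4 arrays and LUM, FAP and POSTN were below it on all 4. Summed fibroblast markers were 4011 and 4302 on the OE-OCT4 arrays and 3348 and 3773 on the control arrays, most of it from THY1, COL1A1 and COL1A2; THY1 is also a surface marker of embryonic stem cells. In bulk RNA, fewer cells of a type and less RNA per cell cannot be told apart. Of 8 blood and endothelial markers, only TEK was above the filter on all 4 arrays, and PTPRC, PECAM1, CDH5, HBB and SPI1 were below it on all 4.

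POU5F1 itself was not brighter on the arrays labelled OE-OCT4. Its bright probe, ILMN_1705546, read 1793 and 1501 on the OE-OCT4 arrays, against 3447 and 2833 on the control arrays. The 2 groups did not overlap, and the difference was -0.95 on the log2 scale (SE 0.16), with an adjusted p of 0.0981 in limma over all probes, above the threshold of 0.05. With the OE-SOX2 arrays left out of the fit the same difference passed, with an adjusted p of 0.0101. On the other vectors' arrays this probe read 3945 and 3795 (OE-NANOG) and 2161 and 2721 (OE-SOX2), so the OE-OCT4 arrays were the lowest of the 8. The second POU5F1 probe, ILMN_1665632, lay near background, at 146 and 120 on the OE-OCT4 arrays and 131 and 136 on the control arrays. The sources used here do not say where these probes lie in the transcript, so it is not known whether either can detect RNA made from the vector. The label OE-OCT4 is therefore used for what the cells were given, and no level of OCT4 from the vector is implied.

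NANOG and SOX2, the partners of OCT4, were also dimmer on average without passing the test. NANOG probe ILMN_1659013 read 366 and 273 on the OE-OCT4 arrays, against 491 and 358 on the control arrays (log2 difference -0.46, adjusted p = 0.779 in limma). NANOG probe ILMN_3307710 read 223 and 197 against 308 and 263 (-0.53, adjusted p = 0.313). SOX2 probe ILMN_1770635 read 946 and 1257 on the OE-OCT4 arrays and 1272 and 1587 on the control arrays (-0.40, adjusted p = 0.911), and SOX2 probe ILMN_2177156 read 885 and 1056 against 959 and 1337 (-0.24, adjusted p = 0.959). For NANOG probe ILMN_1659013 and SOX2 probe ILMN_2177156 the arrays of the 2 groups overlapped. For the other 2 probes both OE-OCT4 arrays lay below both control arrays, as they did in 18.7% of all genes.

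**Figure D1:**
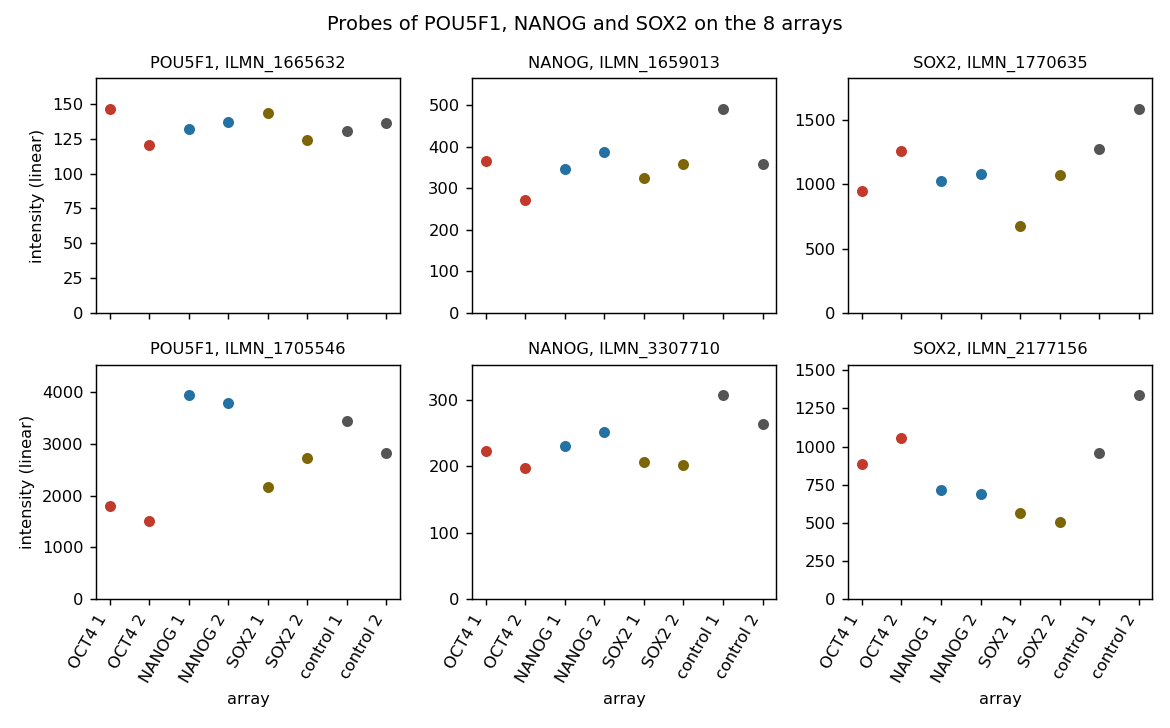
Intensity (linear scale, y axis) of each probe of POU5F1, NANOG and SOX2 on the 8 arrays (x axis), 1 point per array and coloured by group, with OE-OCT4 at the left and control at the right. POU5F1 probe ILMN_1705546 is at 1793 and 1501 on the OE-OCT4 arrays, below the other 6 arrays; no probe of the 3 genes is brighter on both OE-OCT4 arrays than on both control arrays.

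The OCT4 vector changed few genes past the threshold, and most of them rose. In limma with Benjamini-Hochberg adjustment over 12436 genes, 27 genes rose (0.217% of those tested) and 8 fell (0.0643%), while 945 had an unadjusted p under 0.05. The estimated change was at least 2-fold for 21 of the rises and 4 of the falls. The 21 include GABRA2 and AFF3, dim on both control arrays, whose bounds given below are only 1.77-fold and 1.80-fold. All 35 genes had no overlap between the OE-OCT4 and control arrays, which by itself is common here: both OE-OCT4 arrays were above both control arrays in 21.2% of all genes and below both in 18.7%. The median log2 change over all genes was 0.00. The number of calls depended on which arrays set the spread. Without the OE-SOX2 arrays, which differed most from each other (303 genes more than 1 log2 unit apart, against 42 on the OE-OCT4 arrays and 44 on the control arrays), 147 genes passed, including all 35. Most of the 35 lost their call when 1 OE-OCT4, control or OE-NANOG array was left out. CNRIP1, EBF3, COL5A2, KCNJ2 and ELMOD1 kept theirs in each of the 22 alternative settings that tested them. A filter on all 8 arrays removed EBF3, KCNJ2 and ELMOD1. EBF3, GABRA2 and AFF3 were above the filter intensity on the OE-OCT4 arrays alone, so they entered the test through the arrays on which they were high; with no filter, over 20046 genes, all 35 genes passed.

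The largest rise was that of CNRIP1. This gene, which encodes a protein that binds the tail of the cannabinoid receptor CNR1, read 1008 and 911 on the OE-OCT4 arrays, against 219 and 212 on the control arrays. The rise was 5.29-fold (log2 change 2.40, SE 0.12, adjusted p = 0.000316 in limma). Of the 3 other CNRIP1 probes past the filter, ILMN_2182148 and ILMN_3187324 also passed (log2 changes 1.54 and 1.52), and the dim ILMN_3232701 did not (0.41, adjusted p = 0.519). EBF3, a transcription factor of the EBF family with a role in neuron differentiation, read 279 and 355 on the OE-OCT4 arrays and 109 and 111 on the control arrays. Its probe was below the filter intensity on both control arrays, so only a bound is given, at least 3.34-fold higher (adjusted p = 0.00305).

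Of 29 measured genes on the neuronal list 3 rose (EBF3, NSG1 and TAC1) and none fell. In value 13 lay above control and 16 below, with a median of -0.03. Among all genes 0.217% rose and 50.9% lay above control. NSG1, a vesicle protein of neurons, read 1636 and 1894 on the OE-OCT4 arrays, against 718 and 612 on the control arrays (2.77-fold). TAC1, the precursor of the neuropeptide substance P, read 268 and 259 against 148 and 166 (1.92-fold). GABRA2 and PLPPR1, which are not on that list, also rose. GABRA2, a subunit of the GABA-A receptor, read 169 and 207 on the OE-OCT4 arrays and 110 and 103 on the control arrays, at least 1.77-fold higher. PLPPR1, a membrane protein of the phospholipid phosphatase-related family found in neurons, read 192 and 211 against 125 and 125 (1.92-fold), with the control arrays just above the filter. In each of these 4 genes the lower OE-OCT4 array was above the higher control array, as in every called rise. The same held for 21.2% of all genes. ELAVL2, an RNA-binding protein of neurons, had the largest difference among the uncalled members of the list, at 499 and 607 on the OE-OCT4 arrays against 224 and 249 on the control arrays (log2 difference 1.39, adjusted p = 0.0903), and passed without the OE-SOX2 arrays (adjusted p = 0.00132).

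Potassium channel genes moved in both directions. KCNJ2, the inward rectifier Kir2.1, read 294 and 301 on the OE-OCT4 arrays, against 131 and 128 on the control arrays (2.94-fold, log2 change 1.55, SE 0.13, adjusted p = 0.00325). KCNE5, an accessory subunit of voltage-gated potassium channels, read 380 and 333 against 184 and 163 (2.40-fold). KCNK12, a member of the tandem-pore potassium channel family, had the largest fall, with 377 and 450 on the OE-OCT4 arrays and 961 and 1023 on the control arrays (log2 change -1.36, SE 0.16, adjusted p = 0.0169). Of 23 measured genes on the potassium channel list 1 rose and 1 fell, and the median was 0.05; KCNE5 is not on that list.

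COL5A2, TWIST1 and MKX, which act in connective tissue or mesoderm, rose as well. COL5A2, a chain of type V collagen, read 1047 and 814 on the OE-OCT4 arrays and 255 and 270 on the control arrays, a 3.99-fold rise (log2 change 2.00, SE 0.15, adjusted p = 0.00305). TWIST1, a transcription factor of mesoderm and neural crest, read 252 and 215 against 120 and 128 (2.33-fold). MKX, the tendon homeobox factor Mohawk, read 167 and 174 on the OE-OCT4 arrays against 108 and 110 on the control arrays, at least 1.57-fold higher. COL5A2 was the only call among 34 measured collagen chains and enzymes (median 0.04), and 18 of the 34 lay above control. COL8A1, at 649 and 358 on the OE-OCT4 arrays against 179 and 262 on the control arrays (adjusted p = 0.391), and LOX, which crosslinks collagen, at 148 and 224 against 113 and 106 (adjusted p = 0.152), were higher without passing. COL1A1 lay on the other side, at 401 and 705 on the OE-OCT4 arrays against 713 and 1063 on the control arrays (adjusted p = 0.567). Of 15 measured genes of the mesenchymal switch only TWIST1 rose, and 14 measured fibroblast markers had no call and a median of 0.07.

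The rises included UCP1, PGM2L1, GLTP, CD36 and OSBPL6, single genes of lipid handling or energy metabolism, of which GLTP and OSBPL6 are on none of the lists. UCP1, the uncoupling protein of brown fat mitochondria, read 237 and 414 on the OE-OCT4 arrays, against 115 and 112 on the control arrays, at least 3.30-fold higher (adjusted p = 0.0323). Its 2 OE-OCT4 arrays were 0.93 log2 units apart, the widest gap of the 35 genes. PGM2L1, which makes the glucose bisphosphate cofactor of phosphoglucomutases, read 727 and 882 against 264 and 284 (3.28-fold, adjusted p = 0.00325). GLTP, a glycolipid transfer protein, was the brightest rise, at 2802 and 2807 on the OE-OCT4 arrays and 1147 and 1134 on the control arrays (2.51-fold, log2 change 1.33, SE 0.11, adjusted p = 0.00325). CD36, a receptor for fatty acids and lipoproteins, read 298 and 349 against 155 and 187 (2.19-fold). OSBPL6, of the oxysterol-binding protein family, read 238 and 278 against 152 and 145 (2.02-fold). CD36 was the only call among 20 measured genes of lipid uptake and transport (median -0.12), and none passed among 28 genes of cholesterol and fatty acid synthesis (median -0.05). UCP1 was the only call among 43 genes of oxidative phosphorylation and mitochondria, of which 30 lay below control (median -0.05), and PGM2L1 the only call among 24 glycolysis genes, of which 17 lay below control (median -0.26).

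DUSP6, FZD2, FER, IL1A and LGALS14 were further rises. DUSP6, the phosphatase that switches off ERK and is itself induced by ERK signalling, read 795 and 783 on the OE-OCT4 arrays, against 320 and 389 on the control arrays (2.40-fold, adjusted p = 0.0232), and its second probe, ILMN_1677466, rose as well (log2 change 1.44). FZD2, a WNT receptor, read 356 and 346 against 203 and 202 (1.93-fold). FER, a cytoplasmic tyrosine kinase, read 483 and 458 against 260 and 205 (2.27-fold). IL1A, an inflammatory cytokine, read 292 and 239 against 126 and 139 (2.46-fold). LGALS14, a galectin of placenta, read 263 and 260 on the OE-OCT4 arrays and 140 and 127 on the control arrays (2.42-fold), while its second probe stayed near background (log2 difference 0.46, adjusted p = 0.279). In all 5 genes the arrays of a group lay closer to each other than to those of the other group.

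The other named rises were LRRC3B, a leucine-rich repeat membrane protein, at 366 and 441 on the OE-OCT4 arrays against 158 and 140 on the control arrays (3.38-fold); ZDHHC22, a palmitoyltransferase, at 457 and 385 against 186 and 167 (2.81-fold); ELMOD1, an ELMO-domain protein, at 262 and 285 against 132 and 118 (2.80-fold, adjusted p = 0.00325); and AFF3, a nuclear protein of the AFF family, at 208 and 172 against 109 and 120, at least 1.80-fold higher. The last 2 rises fell outside the naming rule and were picked out after their values were seen. EXOC6, a subunit of the exocyst, rose 1.87-fold, and ZNF518B, a zinc finger protein, rose 1.71-fold. Adjusted p-values of the 27 rises ran from 0.000316 to 0.0489. Of the 35 called genes 10 had a further probe past the filter. In all 10 every further probe lay on the same side, and in 3 (CNRIP1, DUSP6 and LRRC3B) at least 1 of them also passed. In the other 7 none passed. The further probe of LFNG, near background, showed almost no difference (log2 difference -0.09), and that of KIT was at -0.54.

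The 8 falls were KCNK12, given above, and LITAF, RPRML, HESX1, CHST9, LFNG, CRABP2 and KIT. LITAF, an endosomal membrane protein, was the brightest, at 1112 and 1634 on the OE-OCT4 arrays against 3129 and 3138 on the control arrays (log2 change -1.24, SE 0.19, adjusted p = 0.0486). RPRML, a relative of the cell cycle inhibitor reprimo, read 141 and 152 against 262 and 298 (-1.19). HESX1, a homeobox repressor of the anterior neural plate that is also expressed in pluripotent cells, read 174 and 163 on the OE-OCT4 arrays and 332 and 319 on the control arrays (-1.17, SE 0.15, adjusted p = 0.0206). CHST9, a sulfotransferase, read 178 and 170 against 309 and 283 (-0.94). LFNG, the fringe enzyme that modifies NOTCH receptors, read 282 and 290 against 492 and 518 (-0.93). CRABP2, which carries retinoic acid to its nuclear receptor, read 585 and 643 against 1068 and 1145 (-0.90). KIT, the receptor of stem cell factor, read 210 and 235 on the OE-OCT4 arrays and 392 and 346 on the control arrays (-0.86). Their adjusted p-values ran from 0.0169 to 0.0489, and each of the 8 lost its call when some single array was left out.

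**Figure D2:**
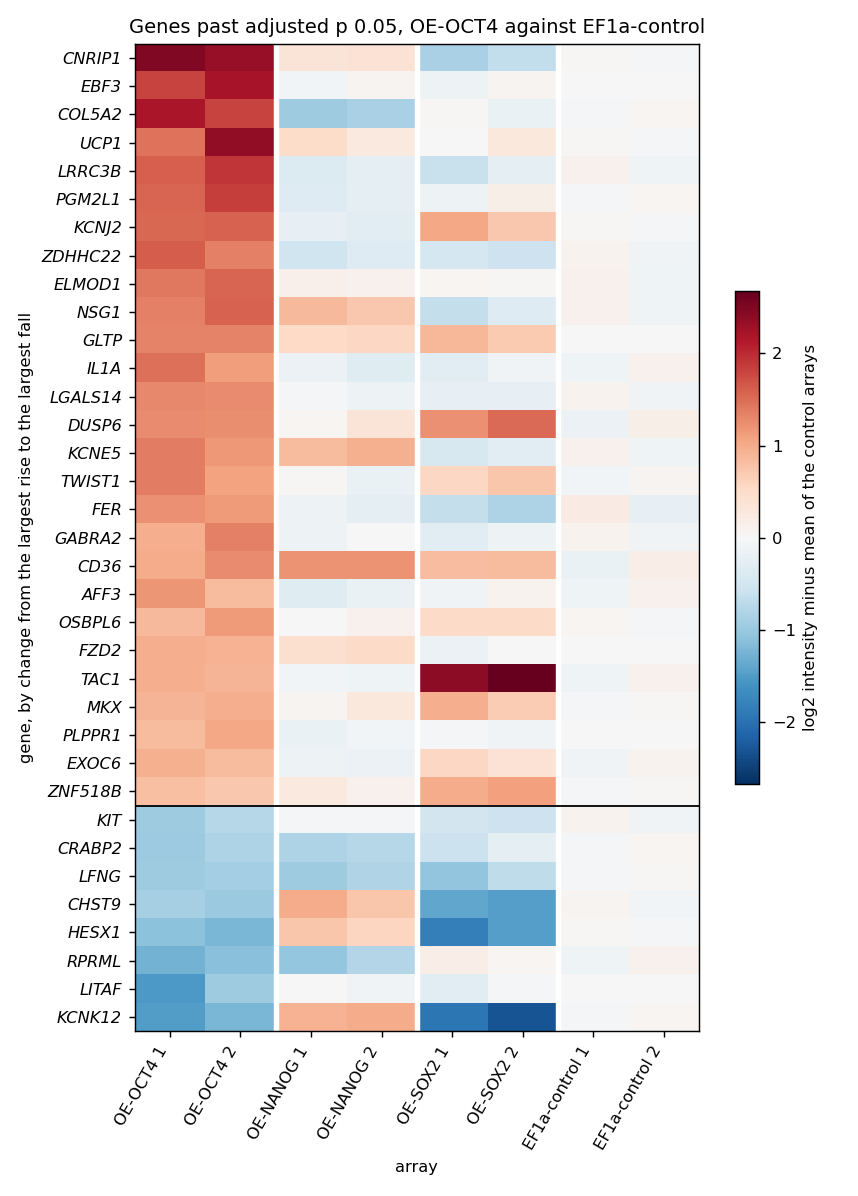
Log2 intensity minus the mean of the 2 control arrays (colour) for the 35 genes past the threshold (rows, the largest rise at the top and the largest fall at the bottom) on the 8 arrays (columns, OE-OCT4 at the left and control at the right). The 2 OE-OCT4 arrays share their sign in every row, while TAC1, DUSP6 and ZNF518B are as high or higher on the OE-SOX2 arrays, CD36 is as high on the OE-NANOG arrays, and LFNG is as low on all 3 vectors' arrays.

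The windows upstream of a few of these genes are shown because OCT4 acts by binding DNA, and its best-known site is the octamer ATGCAAAT. The sequences are RefSeq's, build GRCh38.p14, the 250 bases before the annotated start, written 5′ to 3′ on the gene's strand. EBF3 and UCP1 are shown as the largest rises with an entry, DUSP6 as the ERK feedback gene, HESX1 as the fall on the pluripotency list, and NODAL as a ligand whose level differed widely between the OE-OCT4 arrays. Capitals mark TATAA on the strand shown and CCAAT on either strand (ATTGG where it lies on the other strand).
EBF3 (chr10:129964275-129964524, minus strand): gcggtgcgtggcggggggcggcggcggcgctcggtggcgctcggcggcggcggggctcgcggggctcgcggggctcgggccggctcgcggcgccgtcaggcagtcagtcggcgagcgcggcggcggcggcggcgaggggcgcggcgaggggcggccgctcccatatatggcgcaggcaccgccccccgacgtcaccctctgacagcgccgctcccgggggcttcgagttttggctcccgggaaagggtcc
UCP1 (chr4:140568962-140569211, minus strand): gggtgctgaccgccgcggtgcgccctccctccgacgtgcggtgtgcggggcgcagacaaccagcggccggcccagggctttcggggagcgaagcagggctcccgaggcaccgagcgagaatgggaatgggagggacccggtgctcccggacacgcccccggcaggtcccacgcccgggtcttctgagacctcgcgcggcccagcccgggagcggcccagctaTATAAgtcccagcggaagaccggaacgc
DUSP6 (chr12:89352502-89352751, minus strand): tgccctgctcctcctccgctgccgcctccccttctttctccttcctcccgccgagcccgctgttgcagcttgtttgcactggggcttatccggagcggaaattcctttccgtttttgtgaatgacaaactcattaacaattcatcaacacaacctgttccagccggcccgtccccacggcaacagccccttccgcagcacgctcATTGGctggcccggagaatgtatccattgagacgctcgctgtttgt
HESX1, the second of 2 entries (chr3:57199979-57200228, minus strand): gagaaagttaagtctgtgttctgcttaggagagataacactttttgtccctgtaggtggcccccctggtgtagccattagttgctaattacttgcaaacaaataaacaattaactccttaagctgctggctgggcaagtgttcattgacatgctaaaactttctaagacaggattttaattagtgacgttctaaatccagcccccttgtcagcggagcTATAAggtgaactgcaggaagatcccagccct
NODAL (chr10:70441682-70441931, minus strand): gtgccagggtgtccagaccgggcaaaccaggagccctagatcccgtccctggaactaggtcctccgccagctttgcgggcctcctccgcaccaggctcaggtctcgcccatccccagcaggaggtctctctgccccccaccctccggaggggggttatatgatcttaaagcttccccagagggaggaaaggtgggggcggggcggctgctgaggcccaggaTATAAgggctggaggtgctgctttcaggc

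Of the 35 called genes 28 had an entry in this table; CNRIP1, COL5A2, ELMOD1, FZD2, KCNK12, TWIST1 and ZDHHC22 had none. The octamer ATGCAAAT, searched on both strands, was in the window of 0 of the 28, while 1.91% of the 9937 tested genes with an entry and 2.03% of all 27305 genes in the table held it. No match says only that these letters are not in this window. CCAAT was in the windows of 12 of the 28 (42.9%), against 41.8% of tested genes and 37% of all genes. TATAA, searched on the gene's strand only, was in 6 of the 28 (21.4%: CD36, HESX1, IL1A, LRRC3B, PLPPR1 and UCP1), against 11.1% of tested genes and 16.5% of all genes. In UCP1 it begins 28 bases before the start, in the HESX1 window shown 32 bases before it and in NODAL 29 bases before it. The EBF3 window holds none of the 3 motifs, and 81.2% of its bases are G or C, against 43.6% in the HESX1 window shown and 79.2% in the other HESX1 entry, which holds CCAAT and no TATAA.

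Most of the rises were also higher than with the other vectors. The 35 genes were chosen on the same OE-OCT4 arrays that enter these contrasts, so a difference in the same direction was favoured by the choice. Against the OE-NANOG arrays 25 of the 27 rises passed as higher, where 2.84% of all genes did; KCNE5 and CD36 did not pass. Against the OE-SOX2 arrays 19 of the 27 passed as higher, where 2.99% of all genes did. DUSP6, TWIST1, CD36, OSBPL6, MKX, EXOC6 and ZNF518B did not pass there, and TAC1 passed in the other direction, at 268 and 259 on the OE-OCT4 arrays against 646 and 779 on the OE-SOX2 arrays (log2 difference -1.59). In total 18 rises passed against both, among them CNRIP1, EBF3, COL5A2, UCP1, PGM2L1 and KCNJ2. DUSP6 read 772 and 936 on the OE-SOX2 arrays, and its log2 difference from them was -0.11.

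Fewer of the falls passed against the other vectors. Against the OE-NANOG arrays 5 of the 8 passed as lower (KIT, CHST9, HESX1, LITAF and KCNK12), where 4.32% of all genes did. Against the OE-SOX2 arrays 2 of the 8 passed as lower (LITAF and RPRML), where 3.91% of all genes did, and KCNK12 passed in the other direction, at 377 and 450 on the OE-OCT4 arrays against 291 and 232 on the OE-SOX2 arrays. LITAF alone passed as lower against both. CHST9, HESX1 and KCNK12 were brightest on the OE-NANOG arrays; KCNK12 read 1861 and 1934 there. LFNG read 283 and 306 on the OE-NANOG arrays and 266 and 330 on the OE-SOX2 arrays (log2 differences -0.05 and -0.06).

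Leaving the OE-SOX2 arrays out of the fit added 112 genes to the 35 called. Those named here were picked after their values were seen. In that fit 0.764% of genes rose and 0.418% fell, with 68 of the 112 higher and 44 lower. The groups did not overlap in any of the 112, which the choice of genes on these same arrays favoured. Of all genes, 21.2% had both OE-OCT4 arrays above both control arrays and 18.7% had both below. With all 8 arrays the adjusted p-values of the 112 ran from 0.0547 to 0.932. Some of the genes named below also moved with another vector. On the OE-SOX2 arrays TRIB3 read 2451 and 1673, S100A4 198 and 253, and GJA1 714 and 761. DLK1, by contrast, was above its OE-OCT4 values on the OE-NANOG arrays (350 and 379) and the OE-SOX2 arrays (482 and 646). Among the higher genes were MEGF10, a phagocytic receptor, at 645 and 768 on the OE-OCT4 arrays against 228 and 326 on the control arrays (log2 difference 1.52), EDN1, the precursor of endothelin, at 314 and 347 against 152 and 187 (1.19), TRIB3, a target of the stress factor ATF4, at 470 and 620 against 249 and 292 (1.13), and GFRA1, a receptor for GDNF, at 240 and 260 against 143 and 148 (1.00). Among the lower genes were DLK1, a NOTCH ligand homologue, at 145 and 223 on the OE-OCT4 arrays against 475 and 385 on the control arrays (-1.50), S100A4, a calcium-binding protein, at 527 and 410 against 969 and 860 (-1.04), IDO1, which degrades tryptophan, at 174 and 230 against 344 and 363 (-0.99), PRDM14, a regulator of pluripotency and germ cells, at 204 and 210 against 309 and 426 (-0.96), FGFR3 at 342 and 355 against 537 and 674 (-0.87), and GJA1, a connexin, at 877 and 763 against 1270 and 1639 (-0.85).

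Several genes of the nodal pathway differed widely between the 2 OE-OCT4 arrays. In all 42 of the 12436 genes were more than 1 log2 unit apart, 32 of them brighter on replicate 1. None of the 35 called genes was among them, but the test itself disfavours genes with a wide gap within a group. NODAL read 432 on OE-OCT4 replicate 1 and 125 on replicate 2, with 347 and 163 on the control arrays. LEFTY1 read 282 and 123 on the OE-OCT4 arrays, against 195 and 139 on the control arrays, LEFTY2 285 and 126 against 355 and 157, and CER1 267 and 125 against 167 and 156. For the ligand and its 3 antagonists together, OE-OCT4 replicate 1 was the brighter array and replicate 2 lay close to the filter intensity. GDF3, another ligand of the family, read 351 and 211 on the OE-OCT4 arrays and 699 and 275 on the control arrays. BAMBI, a pseudoreceptor that dampens TGF-beta signals, read 2273 and 1485 against 1459 and 1249, and SKI, a repressor that binds SMAD proteins, 163 and 127 against 152 and 138. INHBE, an activin subunit, ran the other way, at 213 and 318 on the OE-OCT4 arrays and 179 and 249 on the control arrays.

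Part of that difference followed the replicate number in the control group too. NODAL, LEFTY2 and GDF3 differed between the control arrays by 1.34, 1.44 and 1.50 log2 units in the same direction, against 2.24, 1.54 and 0.87 between the OE-OCT4 arrays. LEFTY1 differed by 1.57 on the OE-OCT4 arrays and 0.65 on the control arrays, and CER1 by 1.43 and 0.14. Of the 42 genes, 39 differed in the same direction on the control arrays, 14 of them by more than 1 log2 unit. Of 26 measured genes of the nodal, activin and TGF-beta list, 8 were more than 0.5 log2 units apart on the OE-OCT4 arrays (30.8%, against 2.85% of all genes) and 5 on the control arrays, and 7 of those 8 were brighter on OE-OCT4 replicate 1. The nodal list was not the one with the highest share: 4 of 10 genes of the metallothionein and zinc list and 3 of 9 of the primitive streak and mesendoderm list (WNT3, and NODAL and CER1, which both lists hold) were as far apart on the OE-OCT4 arrays. What sets replicate 1 apart from replicate 2 was not tested, since a single array stands for each.

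No gene of this pathway differed between the OE-OCT4 and control groups past the threshold. The 26 genes had adjusted p-values from 0.201 to 0.999 in limma. The standard error of the NODAL difference was 0.64 log2 units, against 0.11 to 0.26 for the 35 called genes, whose choice favours a small one. The mean difference was -0.10 for NODAL, 0.19 for LEFTY1, -0.41 for LEFTY2, 0.20 for CER1 and -0.78 for GDF3. For 6 of the 26 (NODAL, LEFTY1, CER1, SMAD3, SMAD7 and SKI) OE-OCT4 replicate 1 lay above both control arrays and replicate 2 below both, as it did for 5.77% of all genes. The median over the list, relative to the control mean, was 0.16 on OE-OCT4 replicate 1 and -0.09 on replicate 2, with 0.08 and -0.08 on the control arrays. The member closest to the threshold was the receptor ACVR1B, at 454 and 537 on the OE-OCT4 arrays against 315 and 346 on the control arrays (log2 difference 0.65, adjusted p = 0.201), which passed without the OE-SOX2 arrays (adjusted p = 0.0385). Against the OE-NANOG arrays, in a contrast that involves no control array, 3 of the 5 genes NODAL, LEFTY1, LEFTY2, CER1 and GDF3 were lower on the OE-OCT4 arrays past the threshold. GDF3, at 351 and 211 on the OE-OCT4 arrays, read 3986 and 3316 on the OE-NANOG arrays (log2 difference -3.98, SE 0.45, adjusted p = 0.00181 in limma). LEFTY1 was at 1117 and 1299 there (-3.06, adjusted p = 0.00535) and LEFTY2 at 1120 and 1158 (-2.95, adjusted p = 0.0133). NODAL was at 843 and 829 there (-2.15, adjusted p = 0.0907) and did not pass, with the wide gap between its OE-OCT4 arrays, nor did CER1 (0.23, adjusted p = 0.810). The OE-NANOG arrays were also above the control arrays, by 3.26 log2 units for LEFTY1, 2.53 for LEFTY2 and 2.05 for NODAL. For these genes, lying below the OE-NANOG arrays was thus not particular to the OE-OCT4 arrays.

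**Figure D3:**
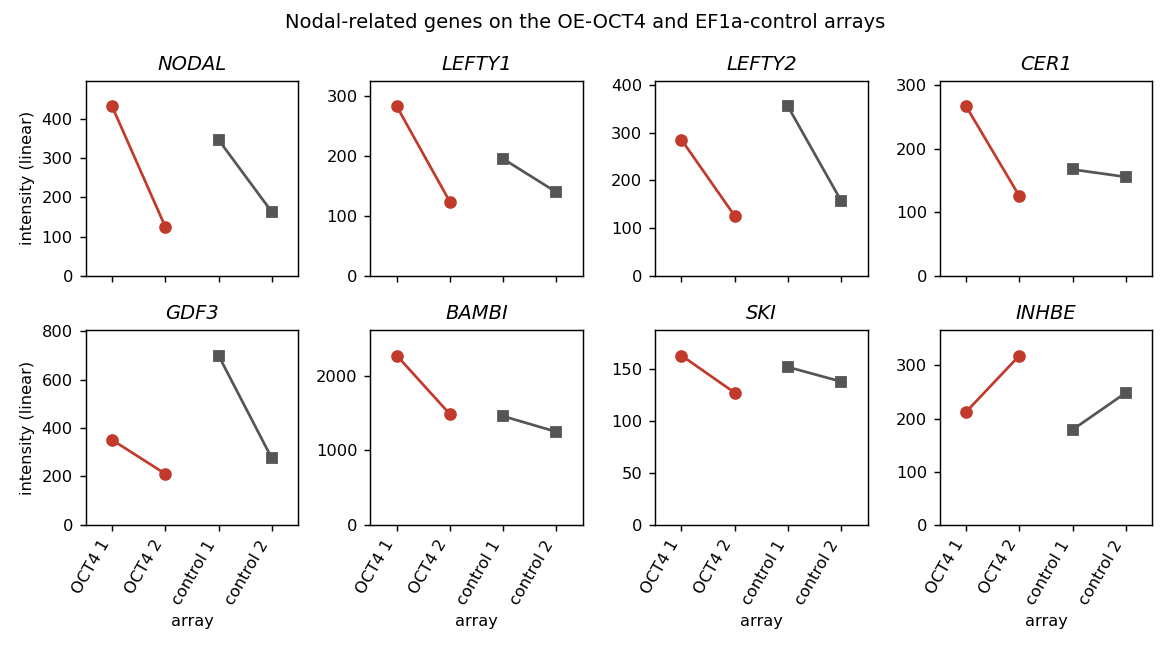
Intensity (linear scale, y axis) of 8 genes of the nodal, activin and TGF-beta list on the 2 OE-OCT4 arrays (circles, left) and the 2 control arrays (squares, right); a line joins the arrays of a group. NODAL is at 432 and 125 on the OE-OCT4 arrays and at 347 and 163 on the control arrays, and INHBE alone of the 8 is brighter on replicate 2 in both groups.

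Outside the pathway the widest gaps between the OE-OCT4 arrays were of 2 kinds. FOXD1, a forkhead factor, read 735 and 178 on the OE-OCT4 arrays (2.35 log2 units apart) against 282 and 263 on the control arrays (0.12), and NTS, the precursor of neurotensin, read 1474 and 512 (1.61) against 927 and 976 (-0.08), so these gaps were not seen between the control arrays. SPP1, osteopontin, read 2181 and 491 against 2328 and 812, ABHD12B 473 and 140 against 518 and 140, ERVMER34-1, an endogenous retroviral envelope gene, 363 and 126 against 462 and 132, and WDR72 436 and 155 against 630 and 185, with gaps of 1.57 to 2.28 log2 units between the control arrays as well. ARRB1, CLC and PKIB completed the 12 genes brighter on replicate 1. In the other direction, DPEP3 read 124 and 325 on the OE-OCT4 arrays against 174 and 285 on the control arrays, and EGR1, an immediate early gene, 181 and 500 against 234 and 634. The other 10 genes brightest on replicate 2 were PPP2R2B, CA11, SYT4, ZNF280D, GRM3, NPAS1, ACTN3, RARRES2, PRKCB and AASS, 0.97 to 1.49 log2 units apart. Among the 12 in each direction, 11 and 11 had the same sign on the control arrays, the exceptions being NTS and ACTN3.

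**Figure D4:**
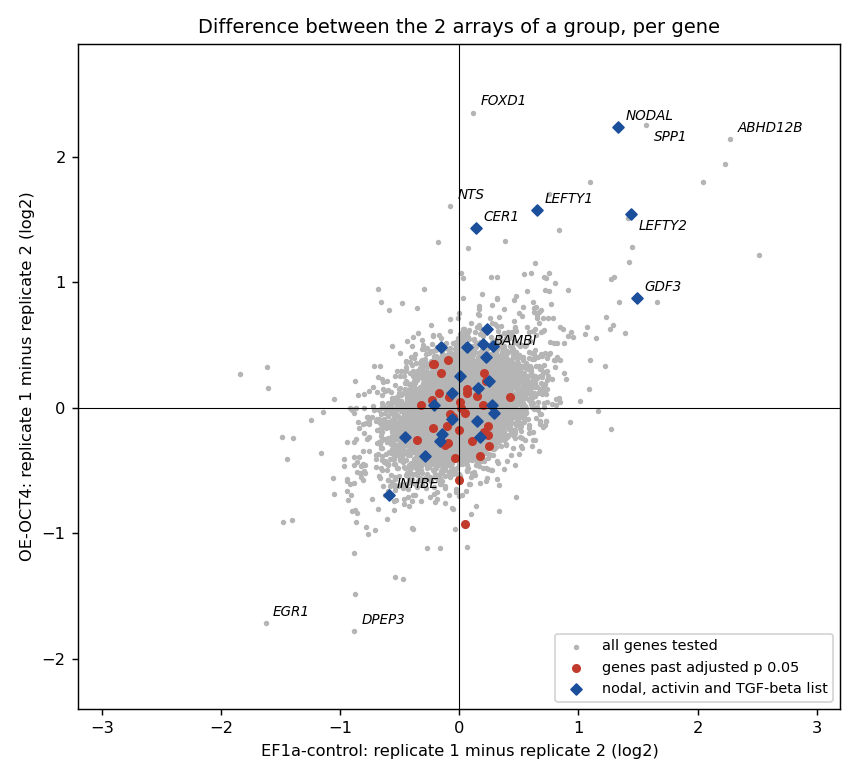
Difference between replicates 1 and 2 (log2) on the OE-OCT4 arrays (y axis) against the same on the control arrays (x axis), 1 point per gene for 12436 genes; red points are the 35 genes past the threshold and blue diamonds the 26 measured genes of the nodal, activin and TGF-beta list. NODAL, LEFTY2 and GDF3 lie high on both axes, CER1 and FOXD1 high only on the OE-OCT4 axis, and the red points stay within 0.931 log2 units of 0 on the OE-OCT4 axis.

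Of 42 measured genes on the shared and primed pluripotency list, HESX1 fell, none rose and 41 did not pass. In value 33 of the 42 lay below control (78.6%, against 49.1% of all genes), and the median log2 difference was -0.23, against 0.00 over all genes. The list's median was -0.21 on both OE-OCT4 arrays, against -0.02 and 0.02 on the control arrays. Of the 42, 17 had both OE-OCT4 arrays below both control arrays, where 18.7% of all genes did. PRDM14, POU5F1 and GDF3 had the largest differences downwards among the uncalled, and ZIC2, at 1989 and 3127 on the OE-OCT4 arrays against 1105 and 2084 on the control arrays, lay higher with overlap. Without the OE-SOX2 arrays 4 genes of the list fell (FZD7, HESX1, POU5F1 and PRDM14) and THY1 rose. On the list of naive pluripotency 13 of 17 lay below control with a median of -0.10, and on the germ cell list, which shares PRDM14 with both, KIT fell and 11 of 14 lay below control (median -0.15), although its 2 OE-OCT4 arrays had medians of 0.02 and -0.24.

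Differentiation lists showed no common direction. The lists of primitive streak and mesendoderm (9 measured), definitive and extra-embryonic endoderm (18), mesoderm, heart and muscle (14), neuroectoderm (24), neural crest (13) and trophectoderm, placenta and amnion (15) had medians between -0.05 and 0.03. Their only calls were TWIST1, which rose, and HESX1, which fell. AFP, an endoderm secretory protein, read 238 and 248 on the OE-OCT4 arrays and 128 and 189 on the control arrays (adjusted p = 0.275). SOX3, a neural factor, read 437 and 615 against 253 and 331 (adjusted p = 0.182), and BMP4 read 105 and 109 against 128 and 126 (adjusted p = 0.285). Of the HOX genes 4 were measured, and HOXB5, HOXD1, HOXD3 and HOXA2 had log2 differences between -0.09 and 0.07.

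The signalling lists held at most 2 calls each. LFNG was the only call among 26 NOTCH genes, of which 19 lay below control (median -0.10). FZD2 was the only call among 27 WNT genes (median -0.09), with AXIN2, a feedback target of WNT, at 350 and 442 on the OE-OCT4 arrays against 511 and 565 on the control arrays (adjusted p = 0.492). DUSP6 rose and KIT fell among 28 genes of FGF, ERK and receptor tyrosine kinase feedback, while DUSP4 read 132 and 189 against 102 and 114 (adjusted p = 0.353). CRABP2 fell among 16 retinoic acid genes, of which 9 lay above control. No gene of 18 on the BMP and ID list passed, and ID1 read 587 and 679 on the OE-OCT4 arrays against 947 and 1008 on the control arrays (log2 difference -0.67, adjusted p = 0.165).

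Metallothionein and glycolysis genes lay lower on the OE-OCT4 arrays, without a call in that direction. All 10 measured genes of the metallothionein and zinc list lay below control, with a median of -0.33 and no call. In 4 of the 10 both OE-OCT4 arrays were below both control arrays, where 18.7% of all genes were. MT1G read 1684 and 2548 on the OE-OCT4 arrays, against 2947 and 3281 on the control arrays (adjusted p = 0.400), and probes of this family can bind one another's transcripts. For the glycolysis list the OE-OCT4 arrays had medians of -0.28 and -0.23, while the 2 control arrays themselves stood at 0.16 and -0.16. PGM1, at 1503 and 1161 on the OE-OCT4 arrays against 3331 and 1584 on the control arrays, shows that spread. In 14 of the 24 glycolysis genes both OE-OCT4 arrays were below both control arrays. Hypoxia targets had 21 of 33 below control, a median of -0.17 and no call. Their medians were -0.13 and -0.11 on the OE-OCT4 arrays and 0.08 and -0.08 on the control arrays. In 13 of the 33 both OE-OCT4 arrays were below both control arrays. ANKRD37, a hypoxia target, read 136 and 134 on the OE-OCT4 arrays against 275 and 175 on the control arrays (adjusted p = 0.246).

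Lists of stress and growth response held no call. Of 31 genes of the integrated stress and unfolded protein response 23 lay above control (median 0.12), with TRIB3 the largest. The medians of that list were 0.10 and 0.19 on the OE-OCT4 arrays and -0.08 and 0.08 on the control arrays. Of 21 immediate early genes 14 lay above control (median 0.16), with medians of 0.18 and 0.14 on the OE-OCT4 arrays and -0.09 and 0.09 on the control arrays. SRF read 1741 and 1620 on the OE-OCT4 arrays and 1122 and 1438 on the control arrays (adjusted p = 0.447). Of 18 G1 cyclins, E2F genes and CDK inhibitors 14 lay above control (median 0.08). Lists of ribosomal proteins, heat shock, S phase, mitosis, p53 targets, interferon-stimulated genes and chromatin had no call and medians between -0.07 and 0.05. Epithelial junction genes (26 measured), integrins, laminins and other matrix (34) and SOX, POU and other partner factors (21) had no call either, with medians of -0.09, -0.08 and 0.00, and 7 measured blood and endothelial markers had a median of -0.19. In all, 25 of the 41 lists held no called gene, 16 held at least 1, and 3 held more than 1.

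**Figure D5:**
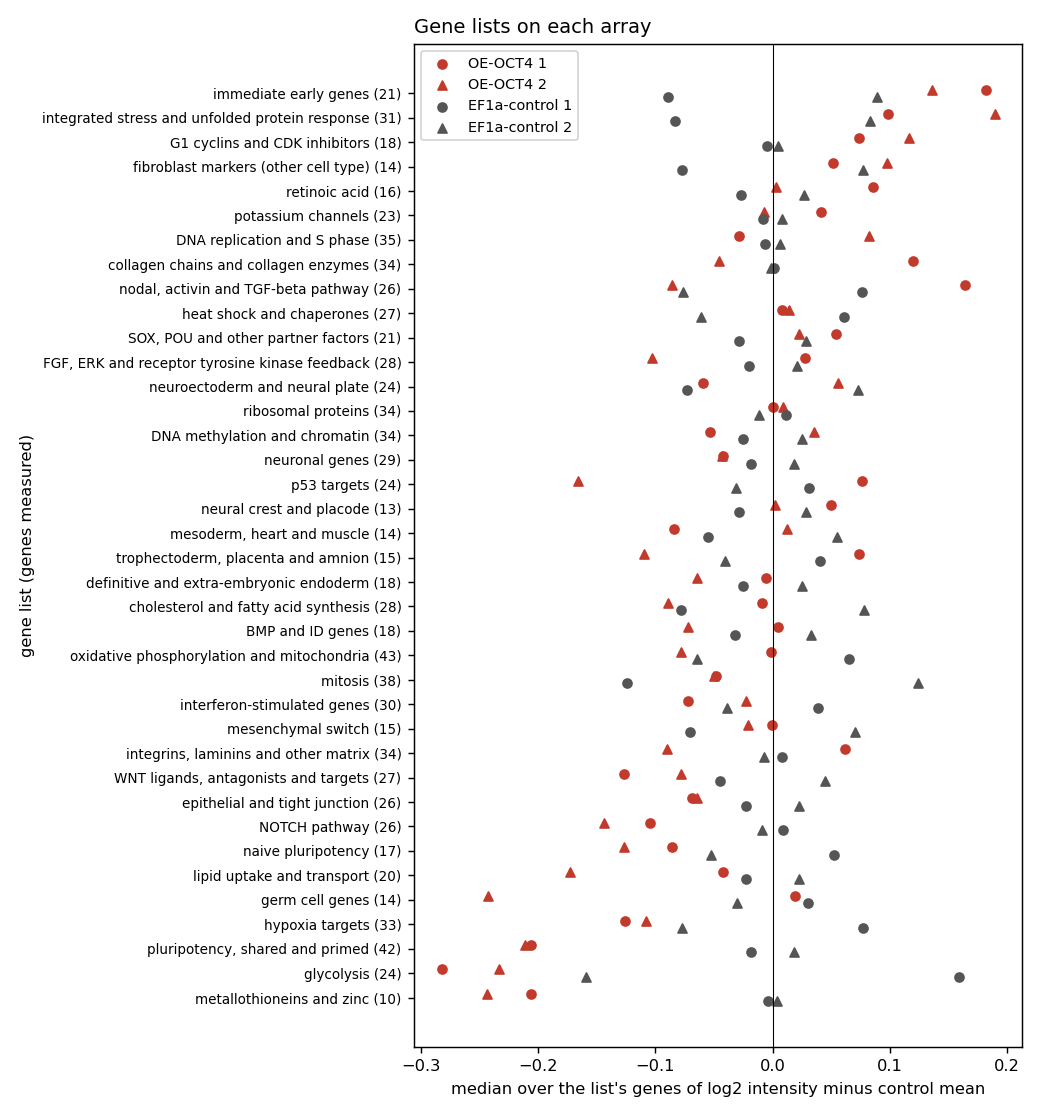
Median over each gene list of log2 intensity minus the control mean (x axis) on each of the 4 arrays; rows are the lists with at least 10 measured genes, with that number in brackets, red marks the OE-OCT4 arrays and grey the control arrays, circles replicate 1 and triangles replicate 2. The metallothionein and the shared and primed pluripotency lists lie between -0.24 and -0.21 on both OE-OCT4 arrays with the control arrays near 0. For glycolysis the control arrays stand at 0.16 and -0.16. The 2 control medians of a list mirror each other, because values are relative to the control mean.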

How the data were processed

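RNA of 8 samples was copied into biotin-labelled cRNA and hybridised to Illumina expression arrays, per the labels' protocols. The deposited values are intensities on a linear scale for 47323 probes; the authors had quantile normalized them, as the sorted values of any 2 arrays differ by at most 2.3. Their tool is not named in the sources used here. A second table of signals with 16 columns, whose names match no sample, was not used, so detection p-values were unavailable.

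Intensities were corrected by normexp (offset 50) and log2 transformed in limma 3.58.1 (R 4.3.3). A probe was kept if it exceeded 123.7, the 60th percentile, on at least 2 of 8 arrays, which left 21828 probes and, with the brightest probe per symbol, 12436 genes. The platform annotation named 30113 probes with 1 symbol, 8 with several and 17202 with none; 30074 matched RefSeq by gene number. Probes with several symbols or none were not named. One limma model held a mean per group over all 8 arrays (4 residual and 4.39 prior degrees of freedom, median residual SD 0.139), two-sided, with Benjamini-Hochberg adjustment and a threshold of 0.05. The offset understates the change of dim genes. Where both arrays of a group were under the filter intensity, the fold is a bound: the brighter mean over the dim arrays at the filter intensity or at their own value if that was higher. The number of arrays, 2 per group, limits the precision.

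Genes were named by rule: the 3 factors by probe, up to 25 rises and 25 falls past the threshold without overlap, nodal list members called or more than 0.5 log2 units apart between the OE-OCT4 arrays, called members and up to 4 others of each of the 41 lists, and the 12 widest replicate gaps in each direction. The comparison, the members and the lists were chosen with earlier results of these data known. In simulated data for the OCT4 vector against control over 12436 genes, 96.2% of genes changed by 1 log2 unit and 100% of those changed by 2 were recovered. The simulation gave every gene the same spread, an SD of 0.19 log2 units, while the measured spread differed between genes and groups. It therefore does not tell what share of real changes was found. Alternatives covered background, normalization, filter, probe choice, arrays in the fit, weights, variance and the replicate number.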

Additional observations from a re-analysis of the deposited data

How the results depend on the processing

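The direction of all 35 called genes held under the 22 alternative settings wherever they were tested. The count of 35 fell to 16 with a filter on all 8 arrays, which tested 9369 genes and removed 13 of the 35, and became 147 without the OE-SOX2 arrays and 99 with array weights; leaving out single arrays gave 9 to 147. Under the other settings it was 22 to 42. Of the 35 genes, 30 differed from the OE-NANOG arrays in the same direction (17 with the filter on all 8 arrays, 17 to 30 with an array left out) and 21 from the OE-SOX2 arrays (11 with that filter). POU5F1 probe ILMN_1665632 changed sign between -0.22 and 0.19, and SOX2 probe ILMN_2177156 between -0.49 and 0.012, when single arrays were left out. Replicate numbers are not said to pair the samples: the 2 arrays' differences correlated across genes at 0.38 between the OE-OCT4 and control groups and between -0.19 and 0.14 for the other pairs of groups. With the number as a block over all groups (replicate block) 32 genes passed, and with a block shared by the OE-OCT4 and control arrays only, chosen after seeing the data, 22 did. That block kept 20 of the 35 genes and lost 15, among them DUSP6, IL1A and the falls HESX1, KIT, CRABP2, LFNG, CHST9 and LITAF. Arrays were few and many probes lay near background: 5 of the 35 genes were under the filter intensity on both control arrays.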
